A study of Mus musculus and Homo sapiens with 40 samples.

Results

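The genes through which cells sense lipopolysaccharide (LPS) were examined for their chromatin marks and CEBPA binding in cells that express the long or the short isoform of CEBPA. The 10 genes were *Tlr4*, *Cd14*, *Ly96*, *Tlr2*, *Myd88*, *Ticam2*, *Irak2*, *Irak3*, *Irak4* and *Traf6*, out of 21757 protein-coding genes annotated on the standard chromosomes. They were taken from a named list and not by a measured value, but with earlier results of these data known. For each gene the locus was its annotated body with 50 kb on both sides (GENCODE annotation of GRCm39, the build called mm39 in the study), and a peak belonged to a locus when its summit lay inside. The cells were HPC-7, a mouse hematopoietic progenitor line, transduced with a retrovirus that carried either CEBPA p42-ERT2 or CEBPA p30-ERT2 and sorted for the GFP of the vector, so that isoform and transduced line cannot be told apart. All cells carried an estrogen receptor (ER) fusion that 4-hydroxytamoxifen releases into the nucleus, according to the methods of the study, and no list from cells with an empty vector was analysed here. The 10 peak lists came from ChIP-seq of H3K27ac in untreated cells and in cells given LPS at 100 ng/mL for 2 h (3 libraries pooled per list), H3K4me1 in untreated cells (2 libraries pooled per list), and anti-CEBPA and anti-ER in untreated cells (1 library per list).

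Toll-like receptors recognize microbial products at the cell surface or in endosomes. LPS is carried by the CD14 protein to a receptor made of TLR4 and MD-2, the product of *Ly96*, and signal then passes through the adaptor MYD88 to the kinases IRAK4 and IRAK2 and the ubiquitin ligase TRAF6, or through the adaptor TRAM, the product of *Ticam2*, to a second branch that induces interferon. *Tlr2* encodes the receptor for bacterial lipoproteins, and *Irak3* encodes IRAK-M, a kinase-like protein that dampens the pathway in monocytes and macrophages. H3K27ac marks active promoters and enhancers, whereas H3K4me1 marks enhancers whether or not they are active, and CEBPA is a bZIP factor that opens myeloid enhancers.

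CEBPA sites from 5 of these loci are shown first because they lie outside the promoters, and those of *Irak4* and *Tlr4* (at 80.6 kb) carried no acetylation in any list. Each window holds 200 bp around the anti-CEBPA summit, read from GRCm39 on the plus strand from 5′ to 3′, and capitals mark matches on either strand to the CEBP consensus TTGCNNAA or to the PU.1 consensus AGGAAGT. The windows are the best-ranked site found with both antibodies in each of 5 loci, leaving out sites in exons, at chr15:94430952-94431151 (*Irak4*, 10.1 kb before the gene start, in an intron of *Pus7l*), chr4:66826282-66826481 (*Tlr4*, 80.6 kb after the start, intronic), chr1:16817524-16817723 (*Ly96*, 59.3 kb after the start, intergenic), chr3:83792583-83792782 (*Tlr2*, 43.6 kb before the start, in an intron of *Gm65015*) and chr9:119162470-119162669 (*Myd88*, 7.92 kb after the start, intergenic). The last window, at chr4:66770345-66770544, is the best-ranked *Tlr4* site that was listed with anti-CEBPA only in p42-expressing cells, 24.7 kb after the start, and was chosen after its values were seen.
Irak4 site: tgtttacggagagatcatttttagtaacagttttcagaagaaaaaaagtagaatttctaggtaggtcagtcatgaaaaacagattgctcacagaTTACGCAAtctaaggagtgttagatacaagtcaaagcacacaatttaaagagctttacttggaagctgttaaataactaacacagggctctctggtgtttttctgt
Tlr4 site at 80.6 kb: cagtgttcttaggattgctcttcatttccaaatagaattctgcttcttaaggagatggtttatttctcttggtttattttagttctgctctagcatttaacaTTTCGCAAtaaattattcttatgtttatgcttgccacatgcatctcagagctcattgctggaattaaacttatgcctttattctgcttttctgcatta
Ly96 site: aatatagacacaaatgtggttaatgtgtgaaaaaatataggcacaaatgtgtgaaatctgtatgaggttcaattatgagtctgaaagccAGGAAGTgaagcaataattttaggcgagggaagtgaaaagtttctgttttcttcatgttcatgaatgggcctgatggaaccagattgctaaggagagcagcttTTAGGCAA
Tlr2 site: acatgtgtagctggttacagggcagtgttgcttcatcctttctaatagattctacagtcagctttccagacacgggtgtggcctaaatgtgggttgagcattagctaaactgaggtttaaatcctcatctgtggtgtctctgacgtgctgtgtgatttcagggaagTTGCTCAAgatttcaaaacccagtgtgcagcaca
Myd88 site: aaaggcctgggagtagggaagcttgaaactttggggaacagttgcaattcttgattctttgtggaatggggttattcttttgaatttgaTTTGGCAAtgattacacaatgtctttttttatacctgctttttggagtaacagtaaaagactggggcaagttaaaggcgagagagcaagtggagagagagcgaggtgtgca
Tlr4 site at 24.7 kb: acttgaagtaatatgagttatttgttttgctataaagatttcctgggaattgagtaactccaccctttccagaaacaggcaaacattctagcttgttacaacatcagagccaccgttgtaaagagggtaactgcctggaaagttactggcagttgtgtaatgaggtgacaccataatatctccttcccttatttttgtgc
The first 5 windows each held 1 CEBP match, which in *Irak4*, *Tlr4* and *Myd88* lay near the middle of the window, and the *Ly96* window also held 1 PU.1 match. The last window held neither.

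Each list is a single set of peaks, so no difference below could be set against replicate error and none carries a test. Where counts or covered lengths are compared between lists, the same figure is given for all loci, and a locus was called different when the covered length differed at least 1.5-fold. The lists held 129369 H3K27ac peaks in untreated and 107141 in LPS-treated p42-expressing cells, 139210 and 142419 in p30-expressing cells, 134658 (p42) and 168035 (p30) H3K4me1 peaks, 47517 and 31851 anti-CEBPA peaks, and 23248 and 34006 anti-ER peaks. Sequencing depth is not given by peak lists and was unknown here. H3K27ac lay at the promoter (1000 bp before to 100 bp after the gene start) of 10 or 11 of 13 progenitor markers in the 4 lists, including *Kit*, *Cd34* and *Spi1* but not *Gata2* or *Erg*, and of 0 of 8 markers of non-hematopoietic tissue and 0 of 4 B-cell markers. It was listed at 5 of 8 macrophage markers in every list, with *Csf1r*, *Marco* and *Msr1* absent, at 0 of 5 T-cell markers in both p42 lists and 1 and 2 of 5 in the p30 lists, and at 6, 6, 4 and 5 of 7 neutrophil markers (p42 untreated, p42 LPS, p30 untreated, p30 LPS). The neutrophil marker *S100a8* was marked in the p42 lists only, and its part in the results was not tested.

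*Tlr4*, the signalling receptor for LPS, had acetylated promoters in both lines but distal acetylation and H3K4me1 only in p42-expressing cells. The gene lies at chr4:66745783-66849936 on the plus strand, a span of 104 kb that includes transcripts running beyond the 15.3 kb canonical one, and no other protein-coding gene starts within its 204 kb locus. The locus held 6 H3K27ac peaks in p42 untreated and 6 in p42 LPS, against 1 in p30 untreated and 1 in p30 LPS. These covered 6.28, 5.78, 2.44 and 2.43 kb in the same order, so the p30 lists covered 2.57-fold less in untreated cells and 2.38-fold less with LPS. Most of the difference lay outside the promoter. The promoter peak of *Tlr4* was 3338, 2590, 2444 and 2432 bp wide, with fold enrichments of 17.5, 21.4, 19.4 and 18.3, and it stood within the best 8.13%, 8.32%, 7.0% and 8.08% of its list. At the promoter the 4 lists were therefore close to one another in rank.

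The other 5 acetylated regions of *Tlr4* were present in both p42 lists and in neither p30 list. The strongest stood 24.9 kb after the gene start, in an intron of the long transcripts and past the end of the canonical one. It was 1242 bp wide with a fold enrichment of 12.4 in p42 untreated (best 11.9% of the list), and 1212 bp wide with 10.3 in p42 LPS (best 16%). The others were weaker, at 29.2 kb (920 bp in p42 untreated, 405 bp in p42 LPS), 29.9 kb (297 and 471 bp), 15.8 kb (191 and 190 bp) and 5.27 kb upstream (287 and 917 bp). H3K4me1 at *Tlr4* consisted of 7 peaks covering 2.77 kb in p42-expressing cells and 0 peaks in p30-expressing cells, although the p30 list was the larger of the H3K4me1 lists. The 7 peaks ran from 5.17 kb upstream to 28.6 kb downstream of the gene start and were of low rank, the best of them within the first 28.3% of its list. Of 15518 protein-coding loci with H3K4me1 in p42-expressing cells, 2.72% had none in p30-expressing cells.

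**Figure D1:**
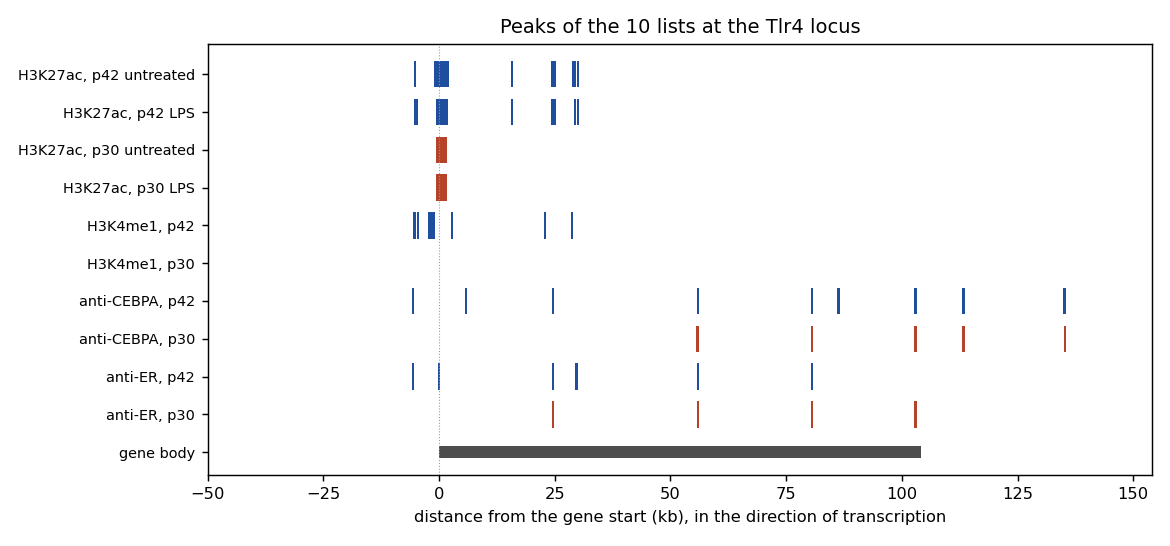
Peaks of the 10 lists at the *Tlr4* locus, by distance from the gene start in kb, with p42 lists in blue, p30 lists in red and the annotated gene body in grey (bars are drawn at least 0.5 kb wide). The promoter peak of H3K27ac is in all 4 lists, the 5 further acetylated regions and the 7 H3K4me1 peaks are in p42 lists only, and the CEBPA sites beyond 50 kb have no acetylation in either line.

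CEBPA binding at *Tlr4* followed the same split only in part. Of its 11 sites, 5 were in p42 lists only, 0 in p30 lists only and 2 in all 4 lists. Over the 10 loci, 13 of 79 sites were in p42 lists only and 13 in p30 lists only, and these shares were not computed over all sites. The site 5.61 kb upstream had both antibodies in p42-expressing cells and no p30 peak, and overlapped H3K27ac in p42 LPS. The site at 29.7 kb had an anti-ER peak in p42-expressing cells only, and overlapped H3K27ac in both p42 lists. The locus held 9 anti-CEBPA peaks in p42-expressing and 5 in p30-expressing cells, and 6 and 4 anti-ER peaks. The whole lists held 47517 and 31851 anti-CEBPA peaks and 23248 and 34006 anti-ER peaks. The site at 24.7 kb, inside the strongest p42-only acetylated region, had an anti-CEBPA fold enrichment of 21.6 in p42-expressing cells (best 8.62% of the list) and no anti-CEBPA peak in p30-expressing cells. With anti-ER it was listed in both lines, at 21.2-fold in p42-expressing cells (best 6.32%) and 7.77-fold in p30-expressing cells (best 45.1%). In p30-expressing cells the site was thus listed with anti-ER only, at a lower enrichment and rank than in p42-expressing cells. The strongest site of the locus, at 80.6 kb, was in all 4 lists, with anti-CEBPA enrichments of 38.4 and 27 and anti-ER enrichments of 17.5 and 18.1 (p42, p30). It lay outside every H3K27ac and H3K4me1 peak of either line, as did the other site in all 4 lists, at 55.9 kb.

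*Cd14*, which encodes the protein that hands LPS to the receptor, was covered by the broadest acetylated domain of the receptor genes, and that domain was shorter in p30-expressing cells. The gene lies at chr18:36858120-36859851 on the minus strand in a gene-dense stretch, with 9 other protein-coding starts in its 102 kb locus. The region over *Cd14*, 13297 bp wide when the 4 lists are merged, was covered over 12547 bp in p42 untreated, 13092 bp in p42 LPS, 5009 bp in p30 untreated and 6385 bp in p30 LPS. Both p42 values exceeded both p30 values more than 1.5-fold. In p42 untreated a single *Cd14* peak of 11698 bp ran over the gene start, with its summit 6.16 kb downstream at 51.7-fold (best 2.29% of the list). The other lists had separate peaks there. The peak at the gene start was at 32.9-fold in p42 LPS, 12.6-fold in p30 untreated and 15.6-fold in p30 LPS, and the one whose summit lay 6.32 to 6.34 kb downstream was at 39.1-, 15.2- and 17.2-fold in the same order. At both places the p30 enrichments were thus below the p42 LPS one.

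Over the whole *Cd14* locus, H3K27ac covered 59.1 kb (p42 untreated), 57.8 kb (p42 LPS), 36.3 kb (p30 untreated) and 44.3 kb (p30 LPS), in 42, 42, 39 and 51 peaks. The p30 coverage was 1.63-fold lower untreated and 1.30-fold lower with LPS. Without scaling to list size, the locus was thus called in the untreated comparison only. A further region 12.0 kb downstream of the *Cd14* start was covered over 4034 and 3993 bp in the p42 lists, 0 bp in p30 untreated and 1895 bp in p30 LPS. The *Cd14* locus is shared with neighbours, and only 4, 4, 3 and 10 of the H3K27ac peaks had *Cd14* as the nearest protein-coding start. H3K4me1 covered 30.0 kb in 43 peaks in p42-expressing and 16.7 kb in 26 peaks in p30-expressing cells, 1.80-fold less. Both marks therefore covered less of the locus in p30-expressing cells.

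Each of the 6 CEBPA sites at *Cd14* was listed in both lines with at least 1 antibody. The strongest, 17.8 kb downstream, had anti-CEBPA enrichments of 22.1 (p42) and 27.4 (p30) and anti-ER enrichments of 42.2 and 78.5, and it lay in H3K27ac in all 4 lists. The site at 13.2 kb, inside the region whose acetylation was missing from p30 untreated, was also in all 4 lists, with anti-CEBPA enrichments of 13.3 and 6.68 and anti-ER enrichments of 13.0 and 15.5. A pair of sites inside the broad domain, at 7.12 and 6.69 kb, had anti-CEBPA peaks only in p42-expressing cells (8.64 and 4.32) but anti-ER peaks in both lines (8.40 and 9.60 in p42, 8.20 and 5.88 in p30). As at the *Tlr4* site at 24.7 kb, p30-expressing cells had an anti-ER peak there and no anti-CEBPA peak.

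**Figure D2:**
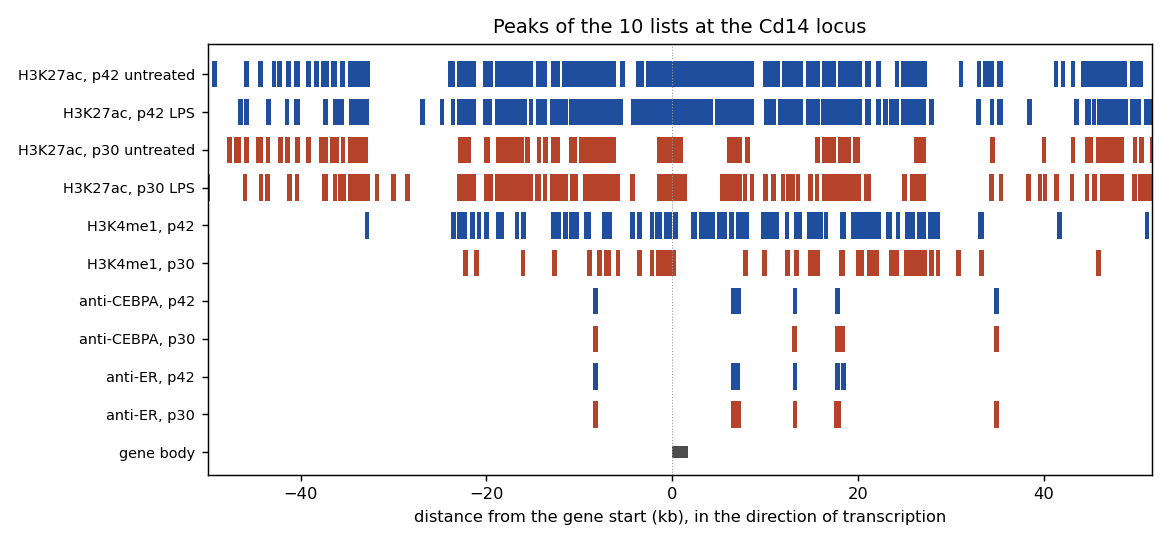
Peaks of the 10 lists at the *Cd14* locus, by distance from the gene start in kb, with p42 lists in blue, p30 lists in red and the gene body in grey (bars at least 0.5 kb wide). The domain over the gene covers 12547 and 13092 bp in the p42 H3K27ac lists and 5009 and 6385 bp in the p30 lists, whereas most CEBPA sites are shared.

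*Ly96*, which encodes the MD-2 subunit of the receptor, showed no such difference. The gene lies at chr1:16758275-16779961 on the plus strand, with *Eloc* and *Tmem70* starting in the same locus. Its promoter peak was 2951, 3648, 3106 and 3819 bp wide in p42 untreated, p42 LPS, p30 untreated and p30 LPS, at fold enrichments of 44.7, 33.4, 43.0 and 65.9, and it stood in the best 2.13%, 1.58%, 1.52% and 0.970% of the lists. In both lines this *Ly96* peak was the wider with LPS. Coverage of the locus was 19.4, 18.9, 21.5 and 25.5 kb for H3K27ac and 17.4 and 19.1 kb for H3K4me1. The only *Ly96* site of both antibodies in p42-expressing cells, 59.3 kb after the start, was in all 4 lists and in H3K27ac of both lines. The receptor genes thus differed among themselves, with p30 coverage below p42 at *Tlr4* and *Cd14* and above it at *Ly96*.

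*Tlr2* followed the pattern of *Tlr4* and *Cd14* in untreated cells. It lies at chr3:83743576-83749074 on the minus strand and, like *Tlr4*, has no other protein-coding start in its locus. H3K27ac covered 16.1 kb (p42 untreated), 16.6 kb (p42 LPS), 9.0 kb (p30 untreated) and 13.1 kb (p30 LPS), in 16, 12, 11 and 16 peaks. The p30 coverage was 1.79-fold lower untreated and 1.26-fold lower with LPS. With LPS the *Tlr2* coverage rose 1.46-fold in p30-expressing cells and 1.03-fold in p42-expressing cells. The p30 value was the largest unscaled rise among the 10 genes in either line, though below the 1.5-fold call. Of the 14 H3K27ac regions of the locus, 6 were gained and 0 lost with LPS in p30-expressing cells, against 1 gained and 1 lost in p42-expressing cells.

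The main *Tlr2* element lay 21.3 kb upstream and was covered over 5334, 5634, 3585 and 4204 bp (p42 untreated, p42 LPS, p30 untreated, p30 LPS), while the promoter region was covered over 2745, 3198, 2041 and 2831 bp. Several upstream regions differed in presence. The region at 33.8 kb was covered over 1098 and 874 bp in the p42 lists, 0 bp in p30 untreated and 205 bp in p30 LPS, and the region at 25.8 kb over 593, 389, 0 and 372 bp. A pair of regions at 43.2 and 43.9 kb was covered in both p42 lists (405 and 567 bp, 346 and 302 bp) and in neither p30 list, yet the CEBPA site that spans the gap between them was in all 4 lists, with anti-CEBPA enrichments of 20.7 and 11.0 and anti-ER enrichments of 23.0 and 17.9 (p42, p30). Downstream of *Tlr2* the lists ran the other way, since the region at 29.1 kb was covered over 677, 236, 1034 and 1057 bp, and its best peak was at 4.89-fold in p42 untreated and 10.3-fold in p30 untreated. H3K4me1 covered 16.3 kb in p42-expressing and 12.6 kb in p30-expressing cells, and its 5 peaks between 29.4 and 33.5 kb downstream were in p30-expressing cells only. *Tlr2* had the most sites in all 4 CEBPA lists among the 10 genes, 5 of 11, and 9 anti-CEBPA peaks in each line.

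**Figure D3:**
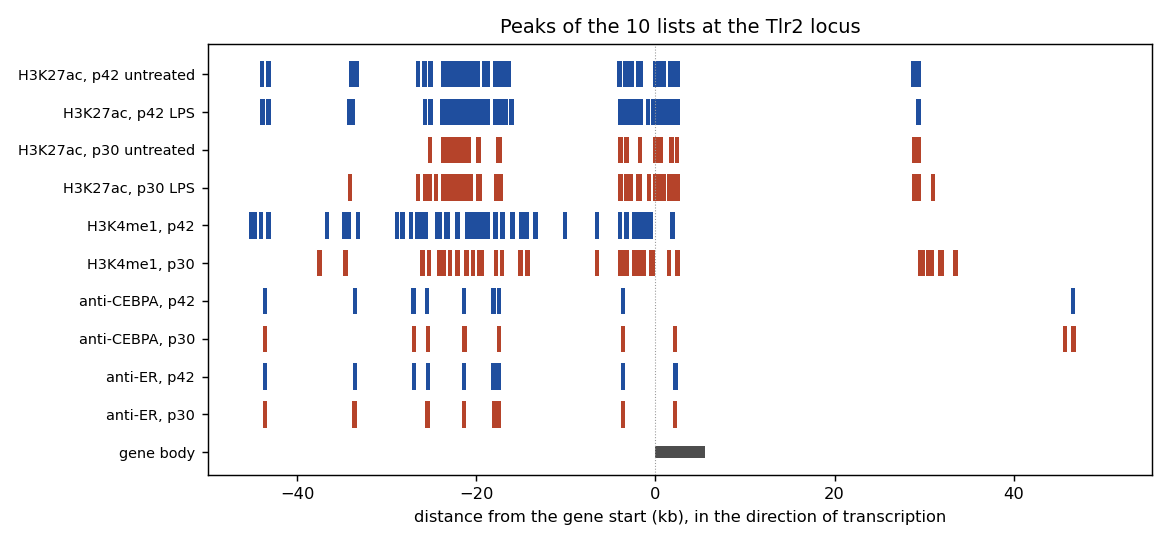
Peaks of the 10 lists at the *Tlr2* locus, by distance from the gene start in kb, with p42 lists in blue, p30 lists in red and the gene body in grey (bars at least 0.5 kb wide). Acetylation at 33.8 and 43.2 kb upstream is present in both p42 lists and absent from p30 untreated, and the CEBPA site at 43.6 kb is in all 4 CEBPA lists.

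Neither adaptor locus reached the 1.5-fold call between the lines, though single regions and sites differed. *Myd88* lies at chr9:119165000-119170486 on the minus strand, and H3K27ac covered 15.2, 13.7, 19.3 and 15.8 kb of its locus (p42 untreated, p42 LPS, p30 untreated, p30 LPS), 1.27-fold more in p30 untreated than in p42 untreated. Of its 25 H3K27ac regions, 10 were in p30 untreated and not in p42 untreated, and 3 the reverse. Its promoter peak, shared with *Acaa1a*, was at 34.1-, 42.4- and 29.5-fold in p42 untreated, p42 LPS and p30 untreated. In p30 LPS it was split, into 2865 bp in the *Myd88* body at 51.0-fold and 875 bp over the start at 19.4-fold. A CEBPA site 305 bp after the *Myd88* start, in untranslated sequence of *Myd88* and *Acaa1a*, was in all 4 lists, with anti-CEBPA enrichments of 9.87 and 8.85 and anti-ER enrichments of 13.2 and 23.4. *Ticam2*, which lies within the body of *Tmed7* but has a start of its own, is at chr18:46690358-46707600 on the minus strand, and 25.9, 23.9, 24.8 and 28.7 kb of its locus were covered. Its promoter peak was the weakest of the 9 acetylated promoters in p42 untreated, at 6.33-fold, against 8.27-fold in p30 untreated. The *Ticam2* site 29.9 kb upstream, in an intron of *Eif1a*, ranked in the best 3.12% of the anti-CEBPA list in p42-expressing cells (30.4-fold) and in the best 24.1% in p30-expressing cells (11.8-fold), while anti-ER gave 13.0-fold in each line. Since several neighbours start in the loci of *Myd88* (3) and *Ticam2* (3), the coverage cannot be assigned to the adaptors alone.

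Among the kinases, *Irak4* carried the site with the highest anti-CEBPA enrichment of all 10 loci, at a place without acetylation. The gene, which encodes the first kinase of the pathway, lies at chr15:94441161-94479696 on the plus strand. The site 10.1 kb before its start was in all 4 lists, with anti-CEBPA enrichments of 54.7 and 45.6 (best 0.99% and 1.86% of the lists) and anti-ER enrichments of 37.2 and 42.7 (best 2.89% and 2.62%). No H3K27ac or H3K4me1 peak of either line overlapped it. The promoter peak of *Irak4*, which also overlapped the promoter of *Pus7l* in every list, was at 28.5-, 34.0-, 32.6- and 33.6-fold. It was within the best 3.28% to 4.45% of all 4 lists, so it was alike across lines and treatment. H3K27ac covered 17.1 kb of the locus in p42 untreated, 11.6 kb in p42 LPS, 13.1 kb in p30 untreated and 13.0 kb in p30 LPS, and 9 of 26 regions were lost and 2 gained with LPS in p42-expressing cells. H3K4me1 covered 8.54 and 4.41 kb, 1.94-fold less in p30-expressing cells. Within 50 kb of the *Irak4* start, however, the ratio of p30 to p42 was 1.09 and the call did not hold. *Irak4* was the nearest protein-coding start for only 1, 0, 0 and 1 of the H3K27ac peaks (p42 untreated, p42 LPS, p30 untreated, p30 LPS). It was the nearest for 0 of the H3K4me1 peaks in either line. Neither the coverage nor the promoter peak can therefore be assigned to *Irak4* alone.

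*Irak2*, the kinase that sustains signalling, lay in the most acetylated locus. It spans chr6:113615386-113672470 on the plus strand, and H3K27ac covered 85.2, 79.9, 81.0 and 87.4 kb of the 157 kb locus (p42 untreated, p42 LPS, p30 untreated, p30 LPS), more than 99% of all loci in each list. The widest single peak of any member was the one over the *Irak2* body in p30 LPS, 25099 bp, where p42 LPS had a longest peak of 10204 bp. The total, however, differed by 1.09-fold at most between lists of the same line or treatment. *Irak2* also had the most CEBPA sites, 16, of which 3 were in all 4 lists, and its promoter was the only one of the 10 with peaks of both antibodies in p42-expressing cells, both weak (5.12-fold with anti-CEBPA and 6.0-fold with anti-ER). In p30-expressing cells the *Irak2* promoter had an anti-ER peak (6.30-fold) and no anti-CEBPA peak. Of the 16 *Irak2* sites, 15 lay in H3K27ac of p42 untreated. The locus holds 7 other protein-coding starts. *Irak2* was the nearest start for 8 of 60, 7 of 53, 8 of 54 and 6 of 59 H3K27ac peaks (p42 untreated, p42 LPS, p30 untreated, p30 LPS). It was the nearest for 5 of the 16 sites, so neither the coverage nor the number of sites can be assigned to *Irak2* alone.

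*Irak3*, which encodes the inhibitor IRAK-M, was the only gene whose unscaled coverage rose over 1.1-fold with LPS in p42-expressing cells. It lies at chr10:119975568-120038035 on the minus strand. H3K27ac covered 32.6 kb in p42 untreated, 41.0 kb in p42 LPS, 26.9 kb in p30 untreated and 29.4 kb in p30 LPS, which is 1.26-fold and 1.09-fold more with LPS. The median ratio over all loci was 0.837 in p42-expressing cells, and dividing by the list totals brought the *Irak3* rise to 1.51-fold. On that scale *Tlr2* (1.23), *Cd14* and *Ly96* (1.17 each), *Irak2* (1.13), *Tlr4* and *Ticam2* (1.11 each) also rose over 1.1-fold. *Myd88* was at 1.08, and *Irak4* and *Traf6* stayed below 1. *Irak3* was thus the largest rise on either scale in p42-expressing cells, but not the only one once scaled. Of 40 regions at *Irak3*, 11 were gained and 3 lost in p42-expressing cells and 6 gained and 7 lost in p30-expressing cells. Regions in the gene body were among those that widened. The one at 3.49 kb was covered over 1377 bp in p42 untreated, 2718 bp in p42 LPS, 317 bp in p30 untreated and 0 bp in p30 LPS, and the one at 18.1 kb over 1267, 2494, 1067 and 1972 bp.

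At the promoter peak of *Irak3*, which also overlapped the promoter of *Tmbim4* in every list, the lines differed more than the treatments. Only 1, 1, 2 and 3 of the H3K27ac peaks of the locus (p42 untreated, p42 LPS, p30 untreated, p30 LPS) had *Irak3* as the nearest protein-coding start, so neither the coverage nor this peak can be assigned to *Irak3* alone. The peak had fold enrichments of 33.4 and 31.5 in p42 untreated and LPS (best 4.65% and 5.01%) and of 9.71 and 13.3 in p30 untreated and LPS (best 12.4% and 10.3%). The strongest *Irak3* site stood 60.8 kb after the start, in the 3′ untranslated region, and ranked within the best 1.17%, 1.88%, 3.90% and 2.32% of the anti-CEBPA p42, anti-CEBPA p30, anti-ER p42 and anti-ER p30 lists. It was acetylated in all 4 lists. Of 10 sites at *Irak3*, 8 had an anti-CEBPA peak in p42-expressing and 4 in p30-expressing cells. The 4 sites with an anti-CEBPA peak in p42-expressing cells only (at 18.1, 11.7 and 10.7 kb after and 24.3 kb before the start) had p42 enrichments between 5.10 and 9.14, and 2 of them, at 10.7 and 24.3 kb, had anti-ER peaks in both lines.

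*Traf6*, the ubiquitin ligase at the end of this chain, was the exception in several respects. It lies at chr2:101508519-101533545 on the plus strand, and it was the only gene without H3K27ac in the promoter window, because its peak, 1164 to 1288 bp wide in the 4 lists, began further inside the gene, with the summit 0.40 to 0.43 kb after the start. H3K27ac covered 6.44, 4.97, 7.91 and 7.07 kb (p42 untreated, p42 LPS, p30 untreated, p30 LPS). H3K4me1 at *Traf6* covered 3.38 kb in 4 peaks in p42-expressing and 8.16 kb in 13 peaks in p30-expressing cells, 2.42-fold more, the only gene of the 10 with more H3K4me1 by the 1.5-fold call. It had 1 weak anti-CEBPA peak in p42-expressing cells (4.02-fold, at 98.4% of the way down its list), 0 in p30-expressing cells, and 1 anti-ER peak, 54.8 kb downstream, in p30-expressing cells (19.4-fold). It was thus the only locus with no site of both antibodies in either line.

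**Figure D4:**
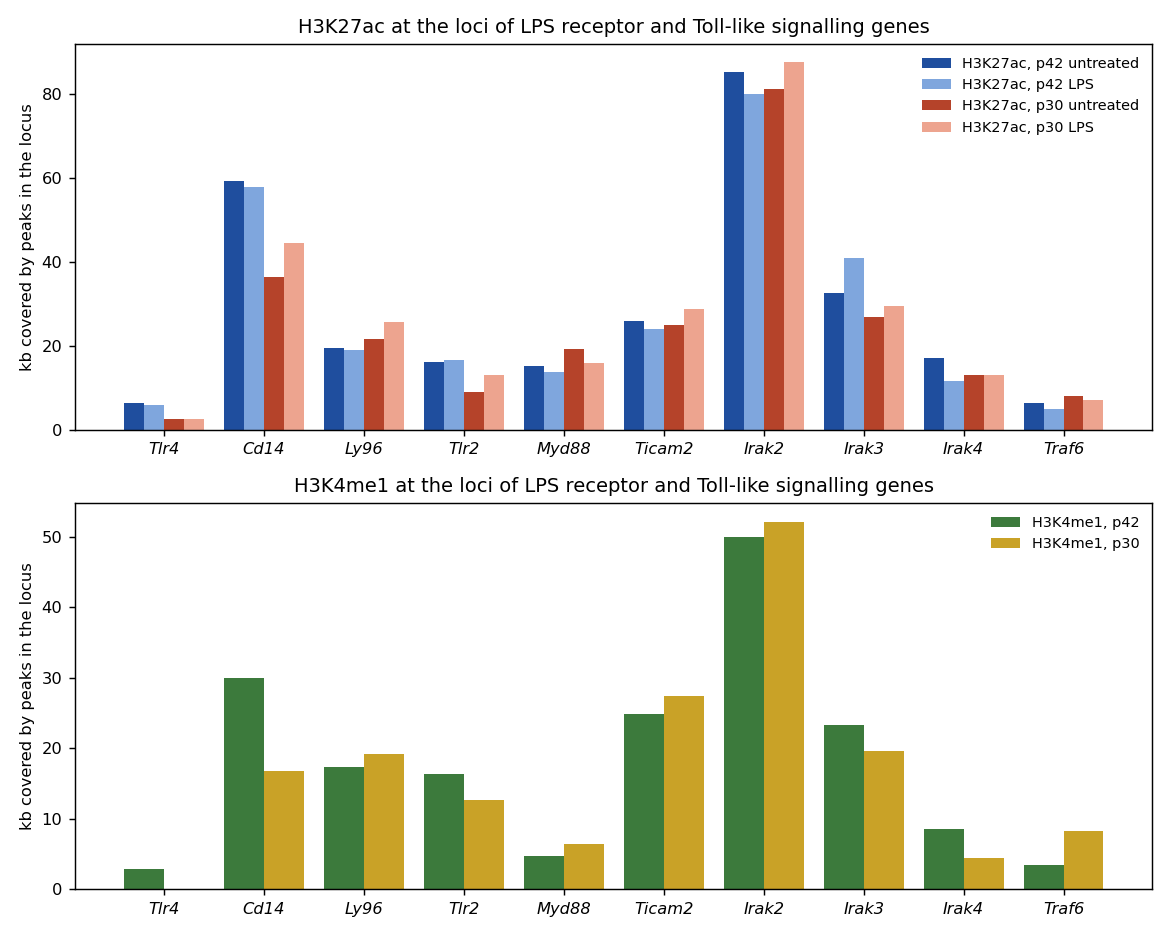
Length covered by peaks in each locus, in kb, for H3K27ac (upper panel, 4 lists) and H3K4me1 (lower panel, 2 lists); each bar is 1 pooled list, so there is no error bar. p30 bars are below p42 bars at *Tlr4*, *Cd14* and *Tlr2* in untreated cells, *Irak3* has its highest bar in p42 LPS, and *Traf6* has the higher H3K4me1 bar in p30.

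Set side by side, 3 of the 10 genes (*Tlr4*, *Cd14* and *Tlr2*) were covered at least 1.5-fold less by H3K27ac in p30 untreated than in p42 untreated and 0 were covered more, where all loci gave 6.52% less and 8.29% more. The median ratio of p30 to p42 was 0.888 over the 10 genes and 1.03 over all loci. With LPS, 1 gene (*Tlr4*) was lower and 0 were higher, where all loci gave 3.10% lower and 20.3% higher. For H3K4me1, 3 genes (*Tlr4*, *Cd14*, *Irak4*) were lower and 1 (*Traf6*) higher, where all loci gave 9.13% lower and 37.8% higher. The 3 receptor genes *Tlr4*, *Cd14* and *Tlr2* were thus on the low side for H3K27ac in untreated p30-expressing cells while most loci were not. With LPS the ratios of p30 to p42 at *Cd14* and *Tlr2* were 0.767 and 0.791, short of the call, where the median over all loci was 1.22. Divided by the list totals these ratios were 0.607 and 0.626, and that of *Irak3* was 0.567, all past the call. Without that scaling, *Ly96* and the signalling genes were not called for H3K27ac between the lines.

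LPS moved none of the 10 loci past 1.5-fold in either line. In p42-expressing cells 0 were higher and 0 lower, where all loci gave 2.13% higher and 14.9% lower, and in p30-expressing cells 0 were higher and 0 lower, where all loci gave 5.52% and 3.55%. The ratio of LPS to untreated ran from 0.678 (*Irak4*) to 1.26 (*Irak3*) in p42-expressing cells and from 0.819 (*Myd88*) to 1.46 (*Tlr2*) in p30-expressing cells. By separate regions, the 10 loci held 297 H3K27ac regions, of which 115 (38.7%, Wilson 95% interval 33.4% to 44.4%) were in all 4 lists, against 30.9% of all 183190 regions. Those gained with LPS were 33 (11.1%) in p42-expressing cells and 59 (19.9%) in p30-expressing cells, against 8.52% and 19.1% of all regions, and those lost were 50 (16.8%) and 43 (14.5%), against 22.6% and 19.2%. The intervals of the shares lost lay below the shares of all regions in both lines (13.0% to 21.5% in p42, 10.9% to 18.9% in p30), and those of the shares gained held them (8.02% to 15.2% in p42, 15.7% to 24.8% in p30).

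Between lines, 58 regions (19.5%, interval 15.4% to 24.4%) were in p42 untreated and not in p30 untreated, and 45 (15.2%, interval 11.5% to 19.7%) the reverse, against 16.3% and 22.3% of all regions. Regions in both p42 lists and neither p30 list numbered 16 (5.39%, interval 3.34% to 8.57%), against 2.28% of all regions, and regions in both p30 lists and neither p42 list 7 (2.36%, interval 1.15% to 4.78%), against 6.67%. Of the 16, 5 were at *Tlr4*, 4 at *Cd14*, 3 at *Irak4*, 2 at *Tlr2* and 1 each at *Irak2* and *Irak3*. Of the 7, 3 were at *Myd88* and 1 each at *Cd14*, *Ly96*, *Ticam2* and *Traf6*. These intervals cover counting error only, and regions of 1 locus share their libraries. H3K27ac at the promoter was listed for 9 of 10 genes in each list, against 46.3%, 45.6%, 45.8% and 47.2% of all protein-coding genes in p42 untreated, p42 LPS, p30 untreated and p30 LPS.

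CEBPA binding was found at nearly every locus. All 10 genes had an anti-CEBPA peak in p42-expressing cells and 9 in p30-expressing cells, and 9 and 10 had an anti-ER peak, where all loci gave 86.7%, 79.6%, 70.5% and 79.6%. A site of both antibodies was found at 9 genes in each line, against 64.5% (p42) and 68.1% (p30) of loci. At promoters, anti-CEBPA peaks were found for 2 genes in p42-expressing and 0 in p30-expressing cells and anti-ER peaks for 3 and 2, against 5.91%, 5.65%, 5.14% and 8.63% of all promoters. The members' sites were therefore mostly distal.

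The merged sites of the 4 CEBPA lists numbered 79 in the 10 loci, of which 21 (26.6%, interval 18.1% to 37.2%) were in all 4 lists, against 20.9% of all 63759 sites. Of the 53 anti-CEBPA peaks in p42-expressing cells, 33 (62.3%, interval 48.8% to 74.1%) overlapped an anti-ER peak, against 38.1% of all peaks in that list, and of the 38 in p30-expressing cells 25 (65.8%, interval 49.9% to 78.8%), against 63.3%. Peaks shared with the anti-CEBPA list of the other line were 34 of 53 and 34 of 38, against 55.3% and 82.5%. The peaks of these genes lay in acetylated chromatin more often than the average peak of the list, with 27 of 53 summits (50.9%, interval 37.9% to 63.9%) in untreated H3K27ac of p42-expressing cells and 14 of 38 (36.8%, interval 23.4% to 52.7%) in that of p30-expressing cells, against 18.9% and 21.7%. The loci themselves held more acetylation than most, with a median of 18215 bp in p42 untreated against 9212 bp over all loci, and the part of this in the shares was not tested. H3K4me1 held 12 of 53 and 8 of 38 summits, against 10.0% and 15.0% of the peaks of each list.

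**Figure D5:**
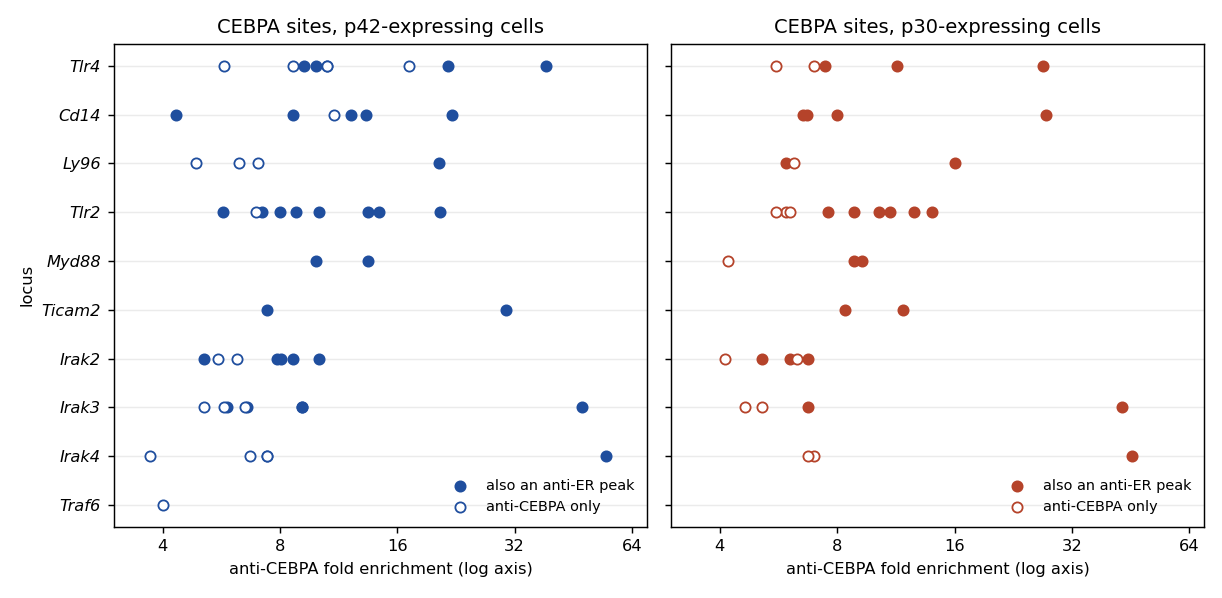
Anti-CEBPA fold enrichment (log axis) of each CEBPA site in the 10 loci in p42-expressing (left) and p30-expressing cells (right), with filled points where the site also had an anti-ER peak of the same line. The best sites of *Irak4*, *Irak3* and *Tlr4* are at 54.7-, 47.7- and 38.4-fold in p42-expressing cells and at 45.6-, 43.0- and 27-fold in p30-expressing cells, whereas *Traf6* has 1 point at 4.02-fold and none in p30.

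Among the motifs searched, the CEBP consensus was about as frequent as in the lists the sites came from. The PU.1 consensus had a larger share, on counts of 7 and 8 windows without an interval. The lines do not give separate sets of windows, since 34 of the 38 p30 peaks overlapped an anti-CEBPA peak of p42-expressing cells. The CEBP consensus was in the 200 bp window of 26 of 53 anti-CEBPA sites in p42-expressing cells (49.1%, against 50.7% of all sites of the list) and of 18 of 38 in p30-expressing cells (47.4%, against 53.0%). The PU.1 consensus was in 7 of 53 (13.2%, against 7.77%) and 8 of 38 (21.1%, against 8.92%), and the AP-1 consensus TGANTCA in 5 of 53 (9.43%, against 7.29%) and 3 of 38 (7.89%, against 7.34%). The composite TGATGCAA, to which CEBP and ATF4 can bind together and which overlaps the CEBP consensus in part, was in 6 of 53 (11.3%, against 10.1%) and 4 of 38 (10.5%, against 10.6%). In the promoters (250 bp before to 50 bp after the gene start), the AP-1 consensus was present at *Cd14* and *Traf6* (2 of 10, against 7.51% of all promoters), the PU.1 consensus at *Tlr4* (1 of 10, against 9.29%), the CEBP consensus at *Irak3* (1 of 10, against 11.4%) and the NF-κB consensus at *Tlr2* (1 of 10, against 4.61%). All matches were counted on both strands, and a match describes letters in a window only.

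The other genes of the pathway were examined at their promoters as a list of 38. H3K27ac was present at 28 promoters in all 4 lists and at 6 in none (*Tlr3*, *Tlr6*, *Tlr8*, *Cd36*, *Tollip* and *Sigirr*), of which *Tlr3*, *Tlr6* and *Tlr8* are receptors and *Tollip* and *Sigirr* are inhibitors. The lists held 31 (p42 untreated), 30 (p42 LPS), 30 (p30 untreated) and 30 (p30 LPS) of the 38. Of all protein-coding genes they held 46.3%, 45.6%, 45.8% and 47.2% in the same order. The promoter of *Tlr1*, the partner of TLR2, was marked in 3 lists and not in p30 untreated, and so was that of *Unc93b1*, which encodes the chaperone of endosomal Toll-like receptors. *Tlr5*, the flagellin receptor, was marked in p30 untreated only, and *Irf7*, an interferon regulator, in both untreated lists and neither LPS list. Peaks of both antibodies lay at 4 of the 38 promoters in both lines (*Lbp*, *Tab1*, *Hsp90b1* and *Cnpy3*) and at that of *Tlr8* in p42-expressing cells only. The shares of all promoters with both antibodies, or with H3K27ac in all 4 lists or in none, were not computed. By covered length, 4 of the 36 loci with peaks were lower and 2 higher in p30 untreated than in p42 untreated. The median ratio was 0.980, where all loci gave 6.52% lower, 8.29% higher and a median of 1.03. With LPS, 0 were lower and 7 higher in p30 (median 1.25), where all loci gave 3.10%, 20.3% and 1.22. For H3K4me1, 3 were lower and 13 higher in p30 (median 1.33), where all loci gave 9.13%, 37.8% and 1.31. LPS against untreated gave 6 lower and 1 higher in p42 (all loci 14.9% and 2.13%). In p30 it gave 0 lower and 2 higher (all loci 3.55% and 5.52%).

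The loci most like *Tlr4* in covered length over the 10 lists, by Euclidean distance of log2(bp + 100), were those of *Gda* (1.75), *Zfp11* (2.06) and *Slc25a32* (2.4), against a median distance of 9.93 for all other loci. All 3 had no H3K4me1 in p30-expressing cells, and *Gda* was covered by H3K27ac over 6072, 5605, 1460 and 1425 bp (p42 untreated, p42 LPS, p30 untreated, p30 LPS). These values entered the distance, so their likeness to *Tlr4* follows from how the loci were chosen. For *Cd14* they were *Nisch* (0.568), *Mki67* (0.846) and *Stab1* (0.851), against a median of 8.06, with H3K27ac over 63956, 51224, 38042 and 33750 bp at *Nisch*. *Nisch* and *Stab1* both lie on chromosome 14 and had the same anti-CEBPA length in p30-expressing cells (1748 bp), and whether their loci share peaks was not examined. At *Mki67* H3K27ac covered 47288, 42926, 44784 and 48818 bp (p42 untreated, p42 LPS, p30 untreated, p30 LPS). With LPS the *Mki67* value was thus the higher in p30-expressing cells, unlike that of *Cd14*.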

How the data were processed

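Peak lists of H3K27ac, H3K4me1, anti-CEBPA and anti-ER ChIP-seq from HPC-7 cells were used, grouped by the labels. According to the methods of the study and the submitters' processing notes, reads were trimmed with Trim Galore (0.6.6), aligned with Bowtie2 to mm39, freed of duplicates with Picard and used to call narrow peaks with MACS2 against input. H3K27ac lists were called on 3 and H3K4me1 lists on 2 pooled replicates, so the spread between replicates was not kept, and the factor lists on 1 library each. All but the anti-CEBPA lists are marked as called without MACS2 fragment modelling, so the antibodies may differ in settings. Each list, as deposited by the authors, gives a fold enrichment at the summit and the −log10 of a p-value and of a q-value, and no peak has a q-value above 0.05. The ATF4 list from human cells was not used here.

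Peaks on chromosomes 1 to 19, X and Y were kept and ranked by p-value within their list. Loci, promoters and gene starts came from GENCODE vM39, whose build is that of the lists. The 4 H3K27ac lists were merged into regions, placed by their midpoint, and the 4 CEBPA lists into sites. Overlap meant 1 bp. Regions found only in the LPS list of a line were counted as gained, and those found only in its untreated list as lost. No test was made, since each group has 1 list. The Wilson method gave 95% intervals, which reflect counting error alone. The depth of the libraries is unknown. The functions were tested on simulated peaks. The 10 genes, the 38 other pathway genes, the markers and the tests were chosen with earlier results of these data known. All 10 genes are named. Other pathway genes are named where the promoter had H3K27ac in some lists only, or both antibodies in 1 line only, and, after their values were seen, where it had H3K27ac in no list or both antibodies in both lines. The loci most alike are the 3 nearest to *Tlr4* and to *Cd14*. Python 3.11.15, pandas 2.3.3 and pysam were used.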

Additional observations from a re-analysis of the deposited data

Results flagged for a closer look

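At 4 of the 10 loci the length covered by H3K27ac was lower with LPS than untreated in p42-expressing cells and higher in p30-expressing cells. The ratio of LPS to untreated was 0.977 (p42) and 1.22 (p30) at *Cd14*, 0.978 and 1.19 at *Ly96*, 0.923 and 1.16 at *Ticam2*, and 0.938 and 1.08 at *Irak2*. The difference between lines was not tested, since each value comes from 1 list, and all 8 values are below the 1.5-fold call. Over all loci the median ratio was 0.837 in p42-expressing and 0.992 in p30-expressing cells, in the same order. Divided by the list totals, the p42 ratios were 1.17 at *Cd14*, 1.17 at *Ly96*, 1.11 at *Ticam2* and 1.13 at *Irak2*. The p30 ratios stayed above 1 under every alternative, so on that scale the lines did not go in opposite directions at these 4 loci.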

How the results depend on the processing

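The calls for *Tlr4* (lower H3K27ac in p30 untreated and LPS, lower H3K4me1) kept their direction and side under all 8 alternatives for each, with p30 to p42 ratios of 0.367 to 0.408 untreated and 0.333 to 0.435 with LPS. The calls for *Cd14* and *Tlr2* in untreated cells were lost within 100 kb (ratios 0.678 and 0.729) and at a 2-fold call. Of 226 values for counts and shares, 203 stayed within 1.5-fold or within their interval, and 23 moved outside.

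With loci of 100 kb, 1 gene was lower for H3K27ac in p30 untreated, 2 were higher for H3K4me1, and regions lost with LPS were 21.6% (p42) and 19.6% (p30). With 25 kb, 1 gene was lower with LPS in p42, 1 higher in p30 than in p42 with LPS and 2 higher for H3K4me1 in p30. At a 2-fold call, 1 gene was lower in p30 for H3K27ac and 1 for H3K4me1. Divided by the list total, 1 gene (*Irak3*) was higher with LPS in p42. In p30 against p42, 4 (*Tlr4*, *Cd14*, *Tlr2* and *Irak3*) were lower with LPS and 5 lower for H3K4me1. With equal numbers of best-ranked peaks, 17.9% of regions were gained with LPS in p42. At q under 1e-05, 2 genes were higher for H3K4me1 in p30, 9.52% of regions were lost with LPS in p30, 24.9% were in p42 untreated only and 10.6% in p30 untreated only. Requiring presence at q under 1e-05 and absence at q under 0.05 gave 2.36% gained and 4.38% lost in p42, 6.06% and 1.35% in p30, and 9.43% (p42) and 3.37% (p30) in 1 untreated list only. The cause of these changes was not tested.

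No paired analysis was possible because the replicates are pooled in the lists, so leaving out a replicate was not run either. Peak presence moves with depth, which is unknown, and a peak that is absent from a list is one that did not pass its threshold.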
